A study of Drosophila melanogaster with 249 samples.

Results

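The 6 actin genes of Drosophila melanogaster were followed through the heads of adult flies. They were taken by identifier from a table of 17142 genes: Act5C (FBgn0000042), Act42A (FBgn0000043), Act57B (FBgn0000044), Act87E (FBgn0000046), Act79B (FBgn0000045) and Act88F (FBgn0000047). Actin is the protein of thin filaments. Act5C and Act42A encode the cytoplasmic actins that every cell uses for shape, transport and division, and the other genes encode muscle actins. Act57B and Act87E serve larval body wall muscle and the muscles of the adult head and abdomen, Act79B the tubular muscles of the adult thorax and legs, and Act88F the indirect flight muscles. The genes lie on different arms: Act5C on X, Act42A and Act57B on 2R, Act79B on 3L, and Act87E and Act88F on 3R.

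The study asked how expression responds when a stretch of chromosome is present in 1 copy, in females, in males and in flies whose sexual state was changed by mutation. Poly-A+ RNA from pools of 10 heads of flies aged 5 days was sequenced, and the libraries kept fall into 79 conditions (a genotype within a group), with 3 libraries per condition except for 2 conditions with 2. Females (XX, n = 97) and males (XY, n = 39) carried functional tra2, a splicing regulator that females need for female development. Chromosomal females transformed into males (tra2 XX, n = 96) and chromosomal males (tra2 XY, n = 3) carried the tra2B allele over the deletion Df(2R)trix.

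Most flies also carried a DrosDel deletion in heterozygous state, written here as Df/+. The 19 lines with an X deletion were sequenced as XX (n = 56) and tra2 XX (n = 57), and the 11 lines with a 3L deletion as XX, XY and tra2 XX (n = 33 each). The rest had no deletion. These were w1118 (white-eyed, the parental strain of the deletions) as XX, XY, tra2 XX and tra2 XY, the Oregon-R strain (OreR, genotype w+/w+ or w+/Y) as XX and XY, and the heterozygote w1118/w+ as XX and tra2 XX. XX and XY flies of the lines came from a cross of balanced deletion stocks to w1118. The tra2 flies came from other crosses with further balancers, over several generations for the deletion lines and with w+ fathers carrying Df(2R)trix for w1118 tra2 XY and w1118/w+ tra2 XX, so the tra2 state and the genetic background brought in by these crosses cannot be told apart. Replicates were separate pools of heads, and p-values measure the spread between such pools. In the 3L and X comparisons they also take in how a difference varied between lines. Pools of a line count there as separate values, although only 11 (3L) or 19 (X) lines repeat a difference.

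A library held between 667146 and 18679735 reads on genes, with a median of 7611689. Levels are given as normalized read counts, in which each library's counts were divided by its size factor. Within a library these values are not corrected for gene length, and they compare 1 gene between libraries. The head label held up against its markers, with a median of 172556 normalized read counts for ninaE, the main photoreceptor opsin, and 996 for the neuronal gene elav. In bulk heads, fewer cells of a type and less RNA per cell cannot be told apart. Of 3 listed markers of flight muscle, Strn-Mlck was at 581 to 3580 (median 1447) and at 0 in no library. By contrast, fln had a median of 2.49 normalized read counts and was at 0 in 39 libraries, and TpnC4 was at 0 in 140 libraries with a highest value of 288. Df(3L)ED4475/+ XY replicate 2 stood apart from its replicates (rank correlation with them 0.799 to 0.824, 1381962 reads). In w1118 tra2 XY replicate 1 the female yolk protein gene Yp1 was at 35670 normalized read counts, against 34.6 and 33 in its replicates.

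Act5C and Act57B made up most of the actin RNA of the head. Together they held a median of 91.8% of all reads on the actin genes (85.9% to 94.4% over all libraries), and the 6 genes held 0.242% of all reads on genes (0.13% to 0.561%). On the FPKM scale, which divides by transcript length, the medians over all libraries were 515 for Act57B, 491 for Act5C, 50.7 for Act87E, 19.3 for Act42A, 18.4 for Act79B and 3.09 for Act88F. Act57B ranked 211 and Act88F 8202 among 17062 genes by median FPKM. No library had a count of 0 for any of the 6 genes.

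The order of the top pair depended on the group. Act57B exceeded Act5C in FPKM in 89 of 97 XX libraries, whereas Act5C was the higher in 56 of 96 tra2 XX and 33 of 39 XY libraries. Dividing the normalized read counts by the exon length of the BDGP6 annotation put Act57B ahead in the tra2 XX libraries, where Act5C was the higher in 17 of 96. The order of the pair in tra2 XX thus rested on the length used. Act5C exceeded Act87E in every library and Act87E exceeded Act42A in 227 libraries. Act42A and Act79B did not separate: on the FPKM scale Act42A was the higher in 122 libraries, and on the exon length scale in 83. In XY, however, Act79B (median 28.3 FPKM) exceeded Act42A (15.5 FPKM) in 37 of 39 libraries.

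Among the cytoplasmic actins, Act5C had its highest levels in tra2 XX. Its normalized read count had a median of 7099 in XX (4771 to 14038), 10335 in tra2 XX (7419 to 14550), 7501 in XY (5480 to 8911) and 8094 in tra2 XY (7962 to 10017). All groups overlapped, but the tra2 XX median lay above the highest XY library. Act42A had medians of 222 in XX (150 to 1088), 279 in tra2 XX (189 to 1224), 168 in XY (127 to 241) and 284 in tra2 XY (250 to 292). The 3 tra2 XY libraries lay above all 39 XY libraries for Act42A.

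Among the muscle actins, Act57B had medians of 6147 in XX (3639 to 19380), 7175 in tra2 XX (3292 to 13757), 4197 in XY (2799 to 7531) and 5216 in tra2 XY (4978 to 8059). Act87E followed the same order in the first 3 groups, with medians of 720 (424 to 2420), 824 (425 to 1396) and 586 (372 to 966), and had 515 (497 to 870) in tra2 XY. Both genes were thus lowest in XY among the groups with many lines. Act88F had the opposite order: its median was 88.1 in XY (11.1 to 223), 54.3 in XX (5.66 to 540), 22.8 in tra2 XX (4.76 to 92.5) and 23.5 in tra2 XY (18.5 to 45.7). On this scale Act79B differed least between groups, with medians of 289 in XX (96.9 to 1374), 259 in tra2 XX (100 to 1355), 328 in XY (182 to 745) and 230 in tra2 XY (185 to 258). On the FPKM scale it did not. There its medians were 19.8, 15.4, 28.3 and 20.2 in the same order, and those of Act87E were 52.4, 50.5, 49.6 and 46.4. These levels pool lines and strains, and the tests that follow compare groups within a strain or within lines.

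**Figure D1:**
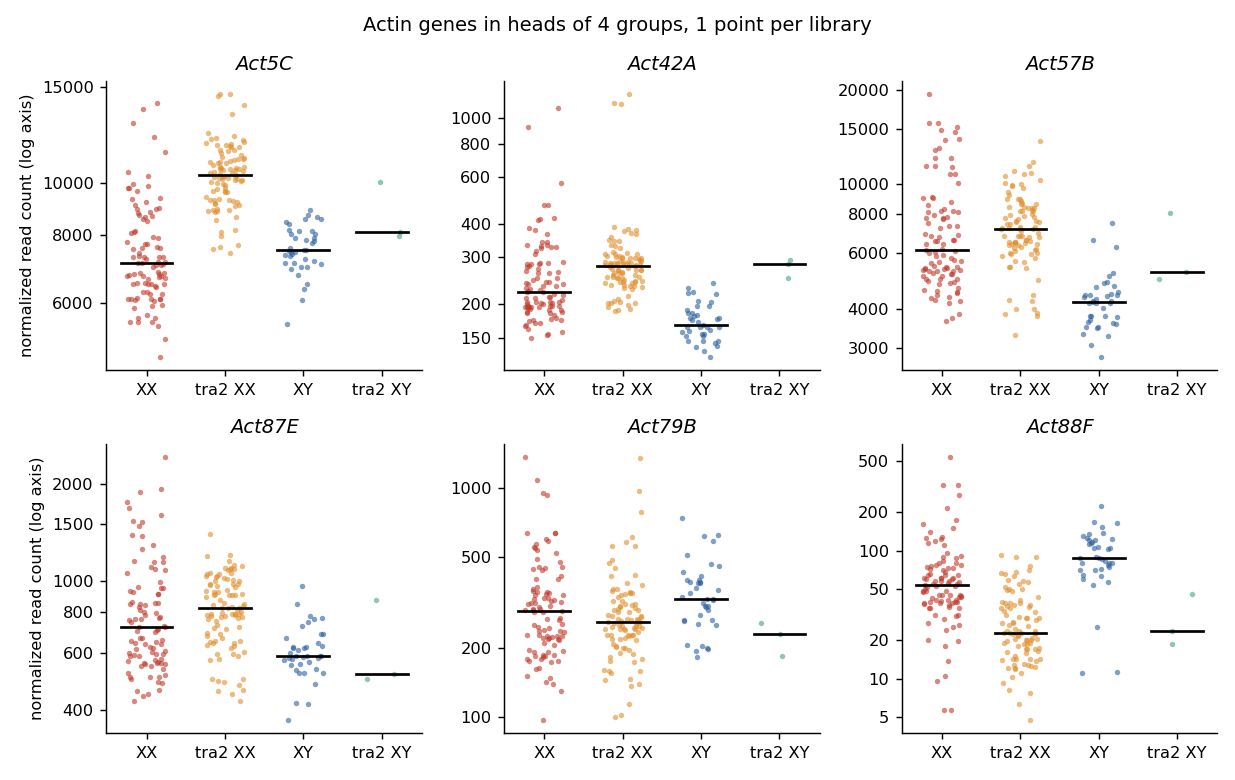
Normalized read count (log axis) of each actin gene in every library of the XX, tra2 XX, XY and tra2 XY groups; points are libraries and bars are group medians. The tra2 XX median of Act5C (10335) lies above the XX and XY medians, and the XY median of Act88F (88.1) is the highest of its 4 groups.

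The w1118 genotype was the only one sequenced in all 4 groups, and it carried no DrosDel deletion. Between its females and males, 0 of the 6 actins were called at an adjusted p of 0.05 by edgeR, where 6.48% of 9861 genes were. By unadjusted p, 1 actin was below 0.05, DESeq2 called 1 and limma on FPKM called 0. That gene was Act88F, with 41.4, 61.6 and 54.9 normalized read counts in XX and 123, 129 and 89.8 in XY. The groups did not overlap, and the estimate was 2.2-fold lower in XX (log2 −1.14 ± 0.34 SE, adjusted p = 0.07). The call was made in 4 of 20 alternative fits. Between tra2 XX and tra2 XY, 0 of the 6 actins were called by edgeR (0.254% of genes were), 1 had an unadjusted p below 0.05, and DESeq2 and limma called 0. The log2 estimates ran from −0.40 for Act57B to 0.27 for Act42A. Without tra2 XY replicate 1, the library with Yp1, the count over all genes went from 25 to 456, still with 0 actins called, and the estimates of Act5C (−0.12), Act87E (−0.29) and Act88F (−0.31) became 0.03, 0.06 and 0.15. The difference between these contrasts, XX over XY minus tra2 XX over tra2 XY, was called for 0 of the 6 actins by edgeR (1.03% of genes called), with 1 unadjusted p below 0.05 and 0 calls by DESeq2 or limma. The smallest adjusted p was for Act57B (log2 0.82 ± 0.33 SE, adjusted p = 0.24).

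Act42A rose in transformed w1118 females. Its normalized read counts were 205, 195 and 211 in XX and 368, 304 and 314 in tra2 XX, without overlap. The difference was 1.64-fold (log2 0.71 ± 0.12 SE, edgeR adjusted p = 0.0018), and it was the only actin of 6 called, where 15.6% of all genes were called. With all libraries of the study in a single fit Act42A was not called (log2 0.70, adjusted p = 0.069). Act57B had 6786, 8165 and 8548 in XX and 5412, 3975 and 4417 in tra2 XX, and these groups did not overlap either. Its estimate of log2 −0.75 ± 0.24 SE had an adjusted p of 0.052. Act87E, with log2 −0.75 and an adjusted p of 0.056, and Act88F, with log2 −1.18 and an adjusted p of 0.062, were close to the threshold as well. DESeq2 called 4 actins here, limma called 2, and 5 had an unadjusted p below 0.05. Of the sarcomere list (19 genes of thick and thin filaments, Z-discs and the calcium switch, without the actins), 7 of 18 tested genes fell and 0 rose in the same comparison. Of all genes, 5.69% fell and 9.96% rose there.

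In chromosomal males of w1118, Act88F was lower in tra2 XY than in XY. It had 123, 129 and 89.8 normalized read counts in XY and 45.7, 23.5 and 18.5 in tra2 XY, so that every tra2 XY library lay below every XY library. The tra2 XY flies had w+ fathers carrying Df(2R)trix, so the tra2 state and this background cannot be told apart. The difference was 4.04-fold (log2 −2.01 ± 0.38 SE, edgeR adjusted p = 0.011), and 1 of the 6 actins was called where 5.72% of genes were. Without tra2 XY replicate 2 the adjusted p of Act88F was 0.058, and 0 actins were called without replicate 2 or replicate 3. Act42A had 197, 231 and 198 in XY and 292, 284 and 250 in tra2 XY. Its estimate was log2 0.39 (adjusted p = 0.072), a difference that was not called although the groups did not overlap. In tra2 XY replicate 1 Act57B was at 8059 against 5216 and 4978, Act87E was at 870 against 515 and 497, and the sum of 4 neuronal genes was at 11203 against 19998 and 20047. The part of that library's makeup in the actin values was not tested.

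**Figure D2:**
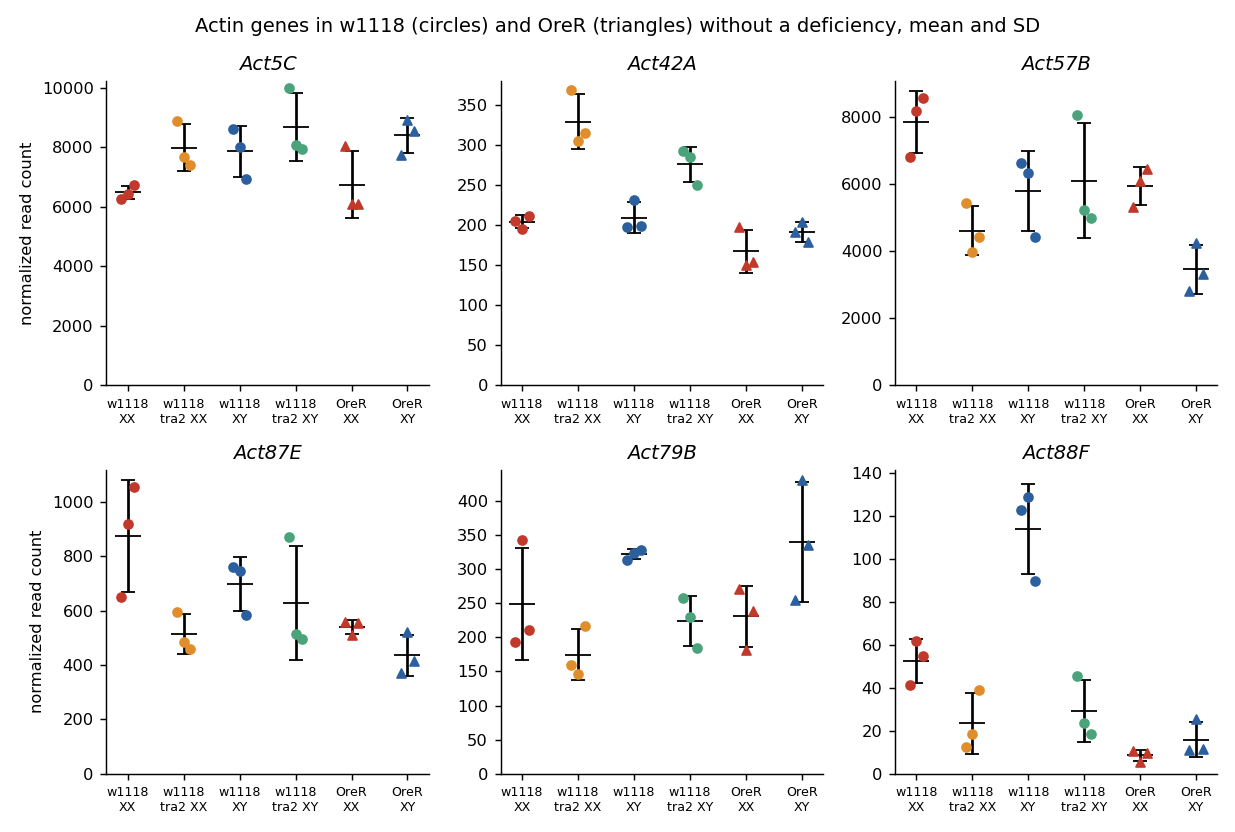
Normalized read count (linear axis from 0) of each actin gene in w1118 (circles) and OreR (triangles) flies without a deletion; points are libraries, horizontal marks are means and error bars are the SD (n = 3 per group). Act42A in w1118 tra2 XX (304 to 368) lies above w1118 XX (195 to 211), and Act88F in OreR lies below w1118 in both sexes.

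The 11 lines with 3L deletions allowed females and males to be compared over 33 libraries each, with line as a factor. Females had more Act42A, Act57B and Act87E and less Act88F and Act5C than males. Act42A had a median of 208 normalized read counts in XX (166 to 284) and 164 in XY (127 to 241), Act57B 5653 (3639 to 12097) and 4176 (3068 to 7531), and Act87E 697 (424 to 1535) and 586 (420 to 966). All 3 distributions overlapped, and the differences were 1.3-fold (log2 0.37 ± 0.05 SE, adjusted p = 3.8e-09), 1.42-fold (log2 0.50 ± 0.08 SE, adjusted p = 2.2e-08) and 1.15-fold (log2 0.20 ± 0.07 SE, adjusted p = 0.0097). Act42A and Act57B were higher in females in 11 of 11 lines, and Act87E in 9 of 11.

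Act88F went the other way. Its median was 47.7 in XX (17.9 to 323) and 88.1 in XY (53.7 to 223), a 1.77-fold lower level in females (log2 −0.83 ± 0.15 SE, adjusted p = 1.2e-06) that was seen in 11 of 11 lines. Act5C was 1.09-fold lower in females (log2 −0.12 ± 0.04 SE, adjusted p = 0.013; medians 6757 and 7460). Act79B, with medians of 301 and 347, was not called (log2 −0.19 ± 0.12 SE, adjusted p = 0.19). In all, 3 of the 6 actins rose and 2 fell, where edgeR called 24.5% of 10403 genes higher and 31% lower. When all libraries of replicate number 3 were left out, 3 actins were called, with an adjusted p of 0.097 for Act5C and 0.086 for Act87E. Act5C also missed the threshold without replicate number 2 (adjusted p = 0.07) and Act87E without replicate number 1 (adjusted p = 0.052).

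The transformed females of the 3L lines had more Act5C than either sex. Act5C had a median of 10654 normalized read counts in tra2 XX (7976 to 12173), above the highest XX library (9650) and the highest XY library (8734). It rose 1.57-fold over XX (log2 0.65 ± 0.04 SE, adjusted p = 6.6e-25) in 11 of 11 lines and by log2 0.53 ± 0.04 SE over XY (adjusted p = 5.9e-20) in 11 of 11 lines. Act42A had a median of 283 (192 to 383) and Act57B of 7847 (4215 to 13757) in tra2 XX, and both ranges overlapped those of XX. Act42A rose by log2 0.39 ± 0.05 SE over XX (adjusted p = 7.9e-10) and by 0.76 ± 0.05 SE over XY (adjusted p = 3.0e-23). Act57B rose 1.4-fold over XX (log2 0.49 ± 0.08 SE, adjusted p = 2.4e-08) and 1.99-fold over XY (log2 0.99 ± 0.08 SE, adjusted p = 3.8e-21), in 11 of 11 lines each. Act87E, at a median of 924 (499 to 1396), rose by log2 0.39 ± 0.07 SE over XX (adjusted p = 4.6e-07) and 0.60 ± 0.07 SE over XY (adjusted p = 9.6e-13).

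Act88F was the actin that fell in transformed females of the 3L lines. Its median in tra2 XX was 27.7 normalized read counts (8.14 to 88.4), against 47.7 in XX and 88.1 in XY. The level was 1.65-fold below XX (log2 −0.73 ± 0.17 SE, adjusted p = 8.1e-05) in 10 of 11 lines and 2.93-fold below XY (log2 −1.55 ± 0.16 SE, adjusted p = 1.2e-14) in 11 of 11 lines. Act79B, at a median of 297 (175 to 1355), was called in neither comparison, with log2 0.09 ± 0.13 SE over XX (adjusted p = 0.51) and −0.10 ± 0.13 SE over XY (adjusted p = 0.48). Over XX, 4 of the 6 actins rose and 1 fell, where 32.9% of 10403 genes were called higher and 38% lower. Over XY the counts were the same, against 36.7% higher and 40.8% lower. The comparisons with XX and with XY use the same tra2 XX libraries and are not independent of each other.

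The size of these differences depended on the scale. With limma on log2(FPKM + 1), the median of all genes shifted by −0.21 for XX over XY, −0.16 for tra2 XX over XX and −0.33 for tra2 XX over XY in the 3L lines. The share of higher genes among those called then went from 44.1% to 18.1%, from 46.4% to 29.3% and from 47.3% to 18%. Under this scaling Act57B and Act87E over XX in tra2 XX were log2 0.11 (adjusted p = 0.12) and 0.09 (adjusted p = 0.23), both above the shifted median of all genes but not called. Act87E in XX over XY was log2 0.01 (adjusted p = 0.86), and in tra2 XX over XY Act5C was log2 0.13 (adjusted p = 0.11) and Act87E 0.10 (adjusted p = 0.15). Act79B was called lower under limma in all 3 comparisons of the 3L lines, with log2 −0.31, −0.36 and −0.66.

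The 19 lines with X deletions, compared between XX and tra2 XX, had the Act5C and Act88F differences. Act5C had a median of 7652 normalized read counts in XX (5449 to 14038) and 10320 in tra2 XX (7538 to 14550), and rose 1.31-fold (log2 0.39 ± 0.05 SE, adjusted p = 1.5e-10) with overlap of the libraries. It was higher in 18 of 19 lines, the exception being Df(1)ED6878/+. Act88F had a median of 59.1 in XX (25.2 to 540) and 22.8 in tra2 XX (4.76 to 92.5), and fell 2.65-fold (log2 −1.41 ± 0.15 SE, adjusted p = 1.0e-14) in 17 of 19 lines. The count was 1 actin higher and 1 lower, where edgeR called 27.2% of 10188 genes higher and 36.9% lower.

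The other actins were not called in the X lines. The log2 differences were 0.03 for Act42A (adjusted p = 0.77, higher in 12 of 19 lines), −0.11 for Act57B (adjusted p = 0.25, lower in 12), −0.24 for Act79B (adjusted p = 0.1, lower in 12) and −0.11 for Act87E (adjusted p = 0.27, lower in 11). The XX and tra2 XX medians were 7066 and 6844 for Act57B and 814 and 786 for Act87E. With limma on FPKM, where the median of all genes was at −0.11 and the share of higher calls went from 42.4% to 29%, 5 actins were called, as Act57B (log2 −0.30), Act79B (−0.46) and Act87E (−0.23) passed the threshold.

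The transformation was therefore compared between the sets of lines with a test of the difference itself, chosen after the data were seen. The tra2 XX over XX difference was larger in the 3L lines than in the X lines by log2 0.61 ± 0.13 SE for Act57B (adjusted p = 5.8e-05), 0.51 ± 0.12 SE for Act87E (adjusted p = 0.00052), 0.35 ± 0.13 SE for Act42A (adjusted p = 0.02) and 0.27 ± 0.07 SE for Act5C (adjusted p = 0.0022). For Act88F, which fell in both sets, the fall was smaller in the 3L lines by log2 0.67 ± 0.24 SE (adjusted p = 0.016), and without Df(1)ED6878/+ by 0.53 (adjusted p = 0.055). This made 5 of 6 actins, where 40.7% of 10480 genes were called in either direction (22.1% higher and 18.6% lower). With each line as a single value (11 against 19 lines, 2-sided permutation test, p not adjusted), the differences were 0.58 for Act57B (p = 0.0039), 0.48 for Act87E (p = 0.0098), 0.25 for Act5C (p = 0.025), 0.69 for Act88F (p = 0.042), 0.28 for Act42A (p = 0.094) and 0.32 for Act79B (p = 0.18). The sets of lines differed in the crosses as well as in the arm deleted, and these cannot be told apart.

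**Figure D3:**
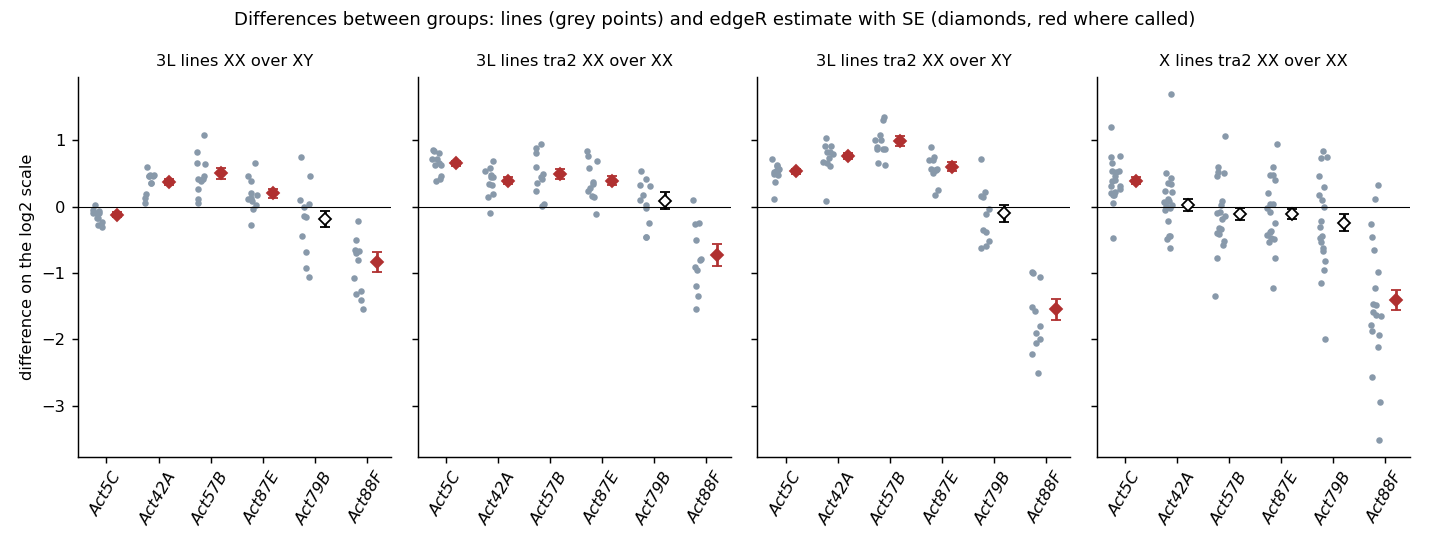
Log2 differences of each actin gene for XX over XY, tra2 XX over XX and tra2 XX over XY in the 3L lines and tra2 XX over XX in the X lines; grey points are lines, diamonds the edgeR estimates with their SE, red where called. Act57B and Act87E lie above 0 for tra2 XX over XX in the 3L lines (0.49 and 0.39) and near 0 in the X lines (−0.11 each), while Act88F is below 0 in all 4 panels.

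The partners of actin did not all move with it. The 7 chaperonin subunits in the tables (the cytosolic complex that folds actin) rose in all 3 comparisons of the 3L lines, 7 of 7 each time, with a median log2 of 0.42 for XX over XY, 0.45 for tra2 XX over XX and 0.85 for tra2 XX over XY against −0.04 for all genes tested. CCT5 rose by log2 0.52 ± 0.06 SE in XX over XY and 0.50 ± 0.06 SE in tra2 XX over XX. In the X lines 2 of 7 subunits rose and 1 fell. The sarcomere list moved in the direction of Act57B in XX over XY, where 13 of 18 genes rose and 0 fell (median log2 0.29), among them the muscle LIM protein gene Mlp84B (log2 0.95 ± 0.06 SE) and the muscle myosin heavy chain gene Mhc (0.32 ± 0.10 SE). In tra2 XX over XX of the 3L lines, where Act57B and Act87E rose, 15 of 18 sarcomere genes fell and 0 rose (median log2 −0.51). The titin-like genes sls (log2 −1.62 ± 0.15 SE) and bt (−1.06 ± 0.14 SE) and the troponin C gene TpnC41C (−1.18 ± 0.15 SE) were among those that fell, and Mhc was not called (−0.15 ± 0.10 SE, adjusted p = 0.16). In the X lines 17 of 19 sarcomere genes fell and 0 rose. Of all genes, 24.5% were called higher and 31% lower in XX over XY of the 3L lines. The shares were 32.9% and 38% in tra2 XX over XX and 36.7% and 40.8% in tra2 XX over XY. In the X lines they were 27.2% and 36.9%.

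Genes that build, cap or sever filaments were called in both directions. Of 24 such genes, 8 rose and 5 fell in XX over XY of the 3L lines. In tra2 XX over XX, 10 rose and 7 fell in the 3L lines, and 7 rose and 4 fell in the X lines. Of all genes, 24.5% were higher and 31% lower in the first comparison, and 32.9% and 38% in the second. In the X lines 27.2% were higher and 36.9% lower. Gel, which encodes the severing protein gelsolin, rose in the same comparisons by log2 0.44 ± 0.10 SE, 1.08 ± 0.11 SE and 0.83 ± 0.07 SE. The formin gene capu, whose product nucleates filaments, fell by 0.33 ± 0.06 SE and 0.60 ± 0.07 SE on the log2 scale in the 3L comparisons. Of 6 nonmuscle myosin and spectrin genes, 2 rose and 3 fell in tra2 XX over XX of the 3L lines. The membrane spectrin gene kst fell by 0.65 ± 0.12 SE on the log2 scale. Among 4 transcription factors and cofactors of actin and muscle genes, 0 rose and 3 fell, including Mrtf, a cofactor of serum response factor (log2 −0.55 ± 0.09 SE).

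Other cell types also shifted between these groups. In XX over XY of the 3L lines, 3 of 4 neuronal genes, 4 of 4 photoreceptor genes and 3 of 4 glial genes fell, and 4 of 4 fat body genes rose. In tra2 XX over XX, 2 of 4 neuronal genes fell, 3 of 4 photoreceptor genes rose and 1 (norpA, log2 −0.41) fell, 3 of 4 glial genes rose, and 4 of 4 fat body genes fell. Of all genes, 24.5% were called higher and 31% lower in XX over XY, and 32.9% and 38% in tra2 XX over XX, so that the neuronal count in the latter was near that of all genes. Over all lines the sum of the neuronal list had medians of 19360 in XY, 15526 in XX and 12880 in tra2 XX, and the sum of the sarcomere list had 46602 (31487 to 57141), 54562 (39277 to 78025) and 42637 (30098 to 55134) in the same order. The part of these shifts in the actin differences was not tested. Of the flight muscle list 2 of 3 genes were tested, and fln was not. Over all lines fln had medians of 2.08 normalized read counts in XX and 2.37 in tra2 XX. TpnC4 was at 0 in 48 of 97 XX and 76 of 96 tra2 XX libraries. In XX over XY of the 3L lines neither tested gene was called (TpnC4 log2 1.09, adjusted p = 0.17). In tra2 XX over XX of the 3L lines, where Act88F fell, Strn-Mlck fell (log2 −0.95 ± 0.09 SE, adjusted p = 3.6e-17) and TpnC4 was not called (log2 −0.53, adjusted p = 0.5). In the X lines, where Act88F fell too, both tested genes fell, TpnC4 by 1.44 ± 0.41 SE (adjusted p = 0.0018) and Strn-Mlck by 0.41 ± 0.08 SE (adjusted p = 4.7e-06) on the log2 scale. The part of flight muscle RNA in the Act88F differences was not tested.

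OreR heads had less Act88F than w1118 heads in both sexes. Females had 10.4, 5.68 and 9.48 normalized read counts in OreR against 41.4, 61.6 and 54.9 in w1118, and males 11.1, 25.3 and 11.3 against 123, 129 and 89.8. Neither pair of groups overlapped, though the OreR female counts were near the study's low-expression cut-off of 6 normalized read counts. The level was 6.13-fold lower in females (log2 −2.62 ± 0.37 SE, adjusted p = 0.00067) and 6.97-fold lower in males (log2 −2.80 ± 0.29 SE, adjusted p = 7.9e-05), and both calls were made in 17 of 17 alternative fits. The heterozygote w1118/w+ had 5.66 and 13.6 in XX, near the OreR values.

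Act57B and Act87E were also lower in OreR males, and Act87E in OreR females. Act87E had 559, 512 and 553 in OreR XX against 652, 921 and 1057 in w1118 XX (log2 −0.68 ± 0.18 SE, adjusted p = 0.031) and 372, 520 and 416 against 762, 747 and 586 in XY (log2 −0.67 ± 0.18 SE, adjusted p = 0.033). Act57B had 2799, 4226 and 3307 in OreR XY against 6633, 6311 and 4405 in w1118 XY (log2 −0.74 ± 0.19 SE, adjusted p = 0.027). None of these groups overlapped. Unlike those for Act88F, these calls were lost when some single libraries were left out, with adjusted p up to 0.13 for Act87E in XX, 0.12 for Act87E in XY and 0.1 for Act57B. In females 2 of 6 actins and in males 3 of 6 were called, where 11.8% and 11.9% of 9865 genes were. Between the sexes of OreR, Act57B was the single actin called (10.6% of genes), with log2 0.78 ± 0.19 SE for XX over XY and an adjusted p of 0.023. That call was lost without OreR XX replicate 2 or 3 or OreR XY replicate 1 or 3 (adjusted p = 0.07 to 0.09). In the OreR comparison of sexes 8 of 18 tested sarcomere genes rose and 0 fell, where 6.86% of all genes were called higher and 3.73% lower. Against w1118, 5 of 18 fell and 0 rose in each sex. Of all genes, 4.95% were called lower there in females and 5.52% in males.

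All 6 actins were called as varying among the lines of females and of transformed females, but not under every alternative. The edgeR test for any difference among the 33 genotypes of XX called 6 of 6 actins (72.7% of 10718 genes), with adjusted p from 2.5e-15 for Act88F to 0.0006 for Act42A. Among the 32 genotypes of tra2 XX it called 6 of 6 (56.3% of 9556 genes), from 4.1e-18 for Act42A to 0.0072 for Act79B. In XX, Act42A was called in 5 of 7 alternatives (adjusted p up to 0.24) and the other actins in 7 of 7. In tra2 XX, 3 actins were called with only the deletion lines and 1 without replicate number 2, and Act42A was the one called in 7 of 7. Among the 13 genotypes of XY it called Act42A, Act87E and Act88F (22.4% of 10419 genes), and Act5C (adjusted p = 0.077), Act79B (0.094) and Act57B (0.25) were not called. In XY, 1 actin was called with only the deletion lines, 1 without replicate number 1 and 0 without replicate number 3. Act88F had the widest span of line means, 44.5-fold in XX, 10.3-fold in XY and 6.9-fold in tra2 XX. Act5C spanned 2.34-fold, 1.41-fold and 1.82-fold in the same order. The lowest Act88F mean in XX, 8.51 in OreR, was near the study's low-expression cut-off of 6 normalized read counts.

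Single lines were tested against the mean of the lines of their group. In XX, 27 actin calls were made, 21 of them higher and 6 lower, where 3.99% of all tests of genes in lines were called higher and 2.36% lower. In tra2 XX there were 16 calls, 8 higher and 8 lower (2.04% and 1.47% of all tests), and in XY 6 calls, 3 higher and 3 lower (1.78% and 1.21%). For single lines, a replicate left out means all libraries of that replicate number, in every line. At most 2 libraries per line were then left, and the tra2 XX calls went from 16 to 3 without replicate 2. A call lost in this way does not by itself show that it rested on the line's own library left out. Act42A, Act57B, Act87E and Act88F lie on arms without a DrosDel deletion. Around Act5C and Act79B, the median of the 10 nearest expressed genes was examined against the mean of the lines. It was at log2 −0.34 or above in every genotype, the lowest being around Act79B in Df(3L)ED4457/+ XX. A deletion that covers few of these genes could leave the median near 0, so this cannot exclude the loss of a copy.

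The females of Df(1)ED6878/+ had the highest level of every muscle actin. Act57B had 15663, 14926 and 19380 normalized read counts, a 2.5-fold higher level than the mean of the lines (log2 1.32 ± 0.17 SE, adjusted p = 1.1e-08). Act87E had 1920, 1676 and 2420 (2.67-fold, adjusted p = 1.5e-09) and Act79B 936, 957 and 1374 (3.73-fold, adjusted p = 8.2e-10). Act88F had 325, 271 and 540 (7.02-fold, log2 2.81 ± 0.21 SE, adjusted p = 1.6e-17). Each of the 3 libraries lay far above the XX medians. Act5C, with 13688, 12117 and 14038, was 1.85-fold higher (adjusted p = 8.8e-08), and Act42A, with 341, 329 and 470, was the single actin not called. All 5 calls were made in 5 of 5 alternative fits.

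That line also stood apart in other genes. Of all genes, 19.6% were called higher and 16.2% lower in Df(1)ED6878/+ females. Of the sarcomere list 11 of 18 genes rose and 2 fell, of the neuronal list 0 of 4 rose and 3 fell (elav 514, 505 and 541 normalized read counts), and of the fat body list 0 of 4 rose and 3 fell (Yp1 61342, 54231 and 10794). Of the photoreceptor list 2 of 4 rose and 1 fell, with ninaE at 245650, 249934 and 276852 against a median of 135957 in XX. The part of these genes in the actin levels was not tested. In tra2 XX of the same line no actin was called: Act57B had 5410, 6280 and 8248 and Act88F 36.3, 40.8 and 19.8.

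Other female lines had part of this pattern. Df(1)ED6443/+ had raised Act57B (15238, 11398 and 13868, log2 1.00), Act87E (1520, 1142 and 1476, log2 0.85), Act79B (639, 492 and 635, log2 0.99) and Act88F (216, 160 and 172, log2 1.74 with adjusted p = 2.9e-07), against 12.1% of genes higher. In its females 8 of 18 sarcomere genes rose and 0 fell. The Act79B call was lost without replicate number 1 (adjusted p = 0.082). In Df(1)ED6906/+ (14% of genes higher) Act57B (12854, 7339 and 10766), Act87E (1256, 769 and 1377) and Act79B (356, 226 and 1093) were called higher. Each call was lost without replicate 3, when Act79B was at log2 −0.01. There 6 of 7 chaperonin subunits rose and 4 of 4 neuronal genes fell, where 14.9% of all genes were called lower. Df(1)ED7261/+ (3.06% higher) had 13087, 10737 and 6611 for Act57B and 140, 96.2 and 118 for Act88F, both called higher, although each call was lost without replicate 1. In the opposite direction, Df(1)ED6957/+ (3.34% of genes lower) had the lowest Act57B of the XX lines, with 4851, 3741 and 4235 (log2 −0.71, adjusted p = 0.026), and Act87E at 567, 448 and 482 (log2 −0.66). Without replicate 2 or replicate 3 neither was called, and Act87E was also lost without replicate 1 and with RLE size factors.

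Act42A departed from the rest of the family in a single transformed line. In Df(1)ED6829/+ tra2 XX it had 1137, 1224 and 1123 normalized read counts, 4.03-fold above the mean of the lines (log2 2.01 ± 0.10 SE, adjusted p = 3.9e-27), and the next line, Df(1)ED7153/+, had a mean of 361. The lowest of these libraries was at 1123, and the highest tra2 XX library of any other line was at 390. Act5C was raised there as well, with 14542, 14466 and 14550 (log2 0.48 ± 0.08 SE, adjusted p = 8.2e-06), and both calls were made in 5 of 5 alternatives. Act88F had 31.2, 89.8 and 92.5, and its call (log2 1.35, adjusted p = 0.025) was lost without replicate 2 or replicate 3. The line had 5.16% of genes called higher, and among them 15 of 24 filament regulators and 7 of 7 chaperonin subunits, but 0 of 18 sarcomere genes. Photoreceptor genes fell in 3 of 4 cases (ninaE 44068, 43215 and 61603), where 3.19% of all genes were called lower. In XX of the same line Act42A had 328, 415 and 343 and was not called.

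The remaining calls in lines were smaller or less steady over the alternatives. In XX, Act87E was higher in Df(1)ED6727/+ (848, 931 and 1752) and Df(1)ED7161/+ (586, 1101 and 1888), and Act57B in Df(1)ED7170/+ (8198, 15630 and 8112), and all 3 calls were lost without replicate 2. Act88F was called higher in Df(3L)ED4457/+ in XX (151, 110 and 79.4) and in tra2 XX (67.5, 57.4 and 63.5), and lower in Df(3L)ED4475/+ XX (24, 17.9 and 31.3). It was also called higher in Df(3L)ED225/+ tra2 XX (22.8, 88.4 and 65.4, log2 1.12, adjusted p = 0.029), a call lost without replicate 2 or replicate 3. Act79B was called lower in w1118/w+ XX (142 and 96.9, log2 −1.31).

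In tra2 XX, Act57B was highest in Df(3L)ED4543/+ (11731, 8471 and 11386, log2 0.56). Act5C was higher in Df(1)ED7261/+ (log2 0.30) and lower in Df(1)ED14021/+ (log2 −0.28). In XY, Act42A was higher in Df(3L)ED217/+ (241, 206 and 221, log2 0.38) and w1118 (197, 231 and 198, log2 0.29), Act88F was higher in Df(3L)ED4287/+ (165, 105 and 223, log2 0.89), Act5C was lower in Df(3L)ED4475/+ (log2 −0.40) and Act87E was lower in OreR (log2 −0.46). Each of the calls in this group of lines was lost in at least 1 of 5 alternatives.

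In some line calls the libraries of the line differed widely. Act42A in Df(1)ED6630/+ XX had 155, 567 and 1088, and its log2 of 1.26 became 0.58 (adjusted p = 0.41) without replicate 3. In Df(1)ED14021/+ XX it had 162, 925 and 234, with log2 0.80 and −0.27 without replicate 2. Act79B in Df(3L)ED225/+ tra2 XX had 260, 1355 and 304 (1.26% of genes higher), with log2 1.19 and −0.01 without replicate 2. Act88F in Df(3L)ED4287/+ XX had 80.5, 323 and 51.6, with log2 1.44 and 0.32 without replicate 2. That library had the flight muscle gene TpnC4 at 288 normalized read counts, against 1.12 and 2.77 in its replicates, and the part of flight muscle RNA in its Act88F level was not tested.

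Among flies without a deletion, Act88F fell in OreR females (log2 −2.70, adjusted p = 2.9e-06), in OreR males (log2 −2.41, adjusted p = 5.2e-06, 5.76% of genes lower) and in w1118/w+ females (log2 −2.53, adjusted p = 0.0001, 2.34% of genes lower). The OreR calls were made in 5 of 5 alternatives, and that of w1118/w+ was lost without replicate 1 (adjusted p = 0.055). In tra2 XX, w1118 (8.09% of genes lower) and w1118/w+ (8.05% lower) had the lowest Act57B, with 5412, 3975 and 4417 in w1118 and 3292, 4256 and 3785 in w1118/w+. The log2 values against the mean of the lines were −0.64 and −0.92, the second with an adjusted p of 0.0012. Act87E (log2 −0.65 and −0.84) and Act5C (−0.36 and −0.34) fell in both genotypes, and Act42A (−0.41) in w1118/w+. Most of these calls were lost when replicate 2 or replicate 3 was left out, and that of Act57B in w1118/w+ was made in 5 of 5 alternatives.

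**Figure D4:**
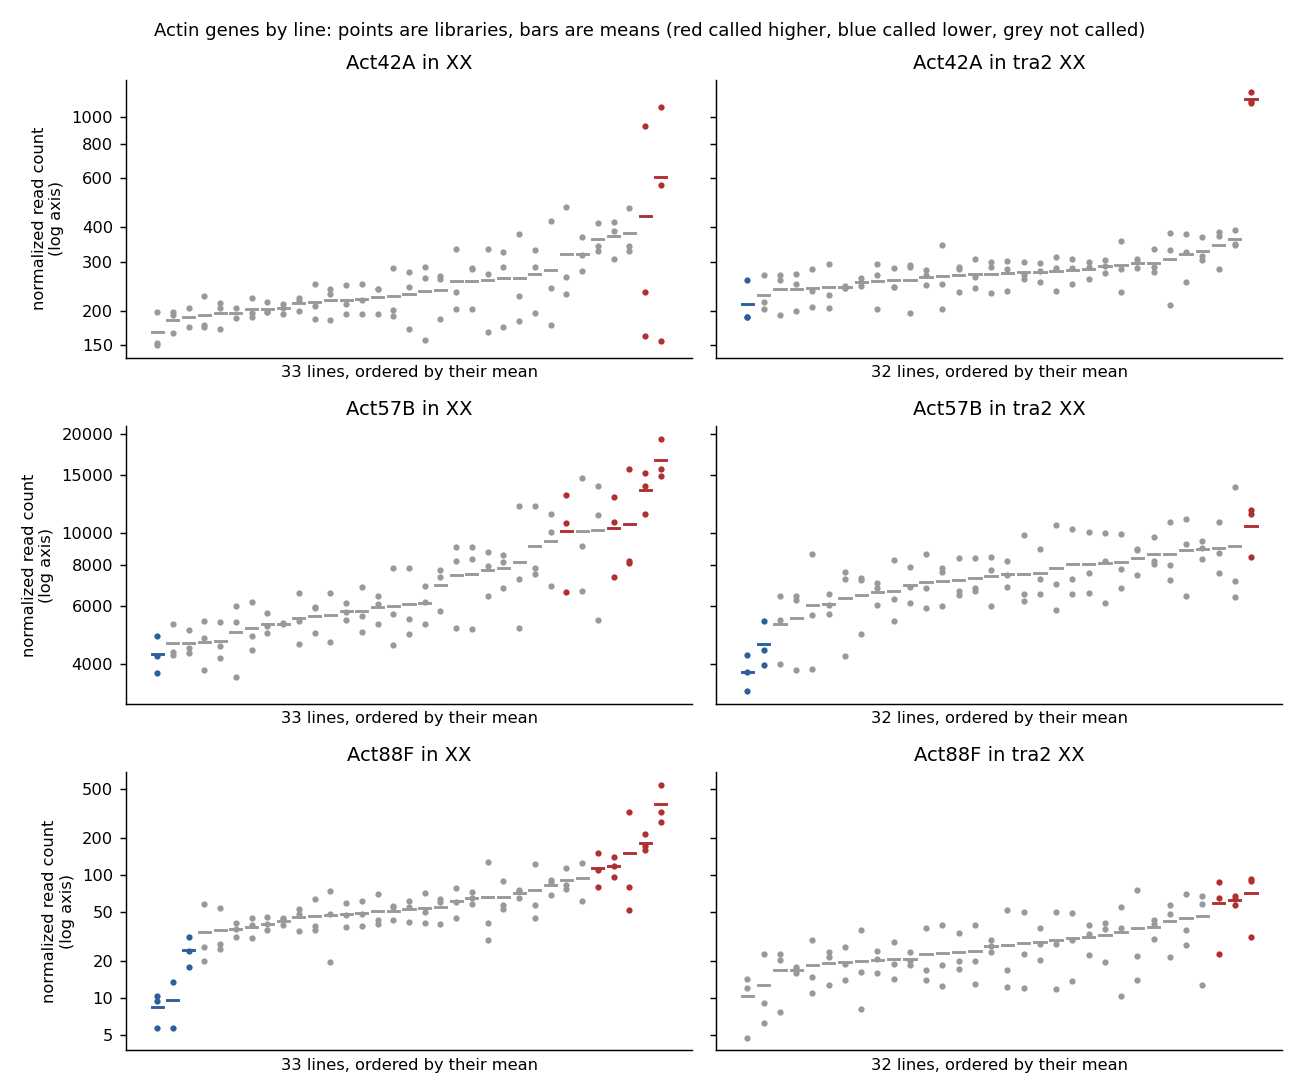
Normalized read count (log axis) of Act42A, Act57B and Act88F in each genotype of XX (33) and tra2 XX (32), ordered by mean; points are libraries and bars are means, red where called above the mean of the lines, blue below and grey not called. Act42A in tra2 XX has a single separate genotype, Df(1)ED6829/+ (mean 1162), and Act88F in XX runs from a mean of 8.51 in OreR to 379 in Df(1)ED6878/+.

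The actins fell into different patterns over the 79 condition means, as described by Spearman's rho over 9306 expressed genes. The conditions share strains and groups, and rho is a description. Act57B and Act87E were each other's nearest gene, with rho of 0.91 over all conditions, 0.91 within XX, 0.88 within tra2 XX and 0.64 within XY. Over the deviations of all libraries from their condition means it was 0.87. Actin genes are near-identical in sequence, and the part of reads they share in the likeness between actins was not tested. The next genes for Act57B were CG14207 and Mpcp1, a mitochondrial phosphate carrier gene (0.86 each), and for Act87E pck (0.83) and GILT1 (0.81). Act88F did not follow Act57B over all conditions (rho −0.09), though it had rho of 0.53 within XX. Within tra2 XX rho was 0.21 and within XY 0.09.

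The nearest genes of Act5C were the alpha-tubulin gene alphaTub84B (0.90), the SNARE gene Snap24 (0.89) and the alpha-tubulin gene alphaTub84D (0.88). Within XY these values were 0.24, −0.12 and 0.73, and over the deviations of libraries 0.75, 0.53 and 0.68. Act42A was nearest to flr, which encodes a cofactor of filament disassembly (0.79), CG5854 (0.76) and the Golgi tether gene p115 (0.76). Over the deviations of libraries, however, the values for these genes were 0.24, 0.39 and 0.18. The nearest genes of Act79B over all conditions, bdl, CG1143 and Coq6, reached 0.57, 0.55 and 0.54. Within XX Act79B had rho of 0.76 with Act87E and 0.73 with Act88F. Within tra2 XX these were 0.49 and 0.45, and within XY 0.39 and −0.08. Over the deviations of libraries it had 0.65 with TpnC41C, 0.61 with Act87E and 0.34 with Act88F. The nearest genes of Act88F, CG4686 (0.79), Osi2 (0.78) and NT5E-2 (0.78), had 0.10, 0.09 and 0.20 over these deviations.

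The levels of 4 actins ran against the neuronal genes. Over the 79 conditions, rho with the summed level of the neuronal list was −0.74 for Act57B, −0.69 for Act87E, −0.62 for Act5C and −0.61 for Act42A, and −0.58, −0.54, −0.46 and −0.40 over the deviations of libraries. With the chaperonin list rho was 0.76 for Act57B, 0.73 for Act42A and 0.67 for both Act87E and Act5C. With the sarcomere list it was 0.08 for Act57B and Act87E, and 0.52 for Act88F, where it was −0.03 over the deviations. The points come from the same libraries and share depth and tissue makeup, whose part was not tested.

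**Figure D5:**
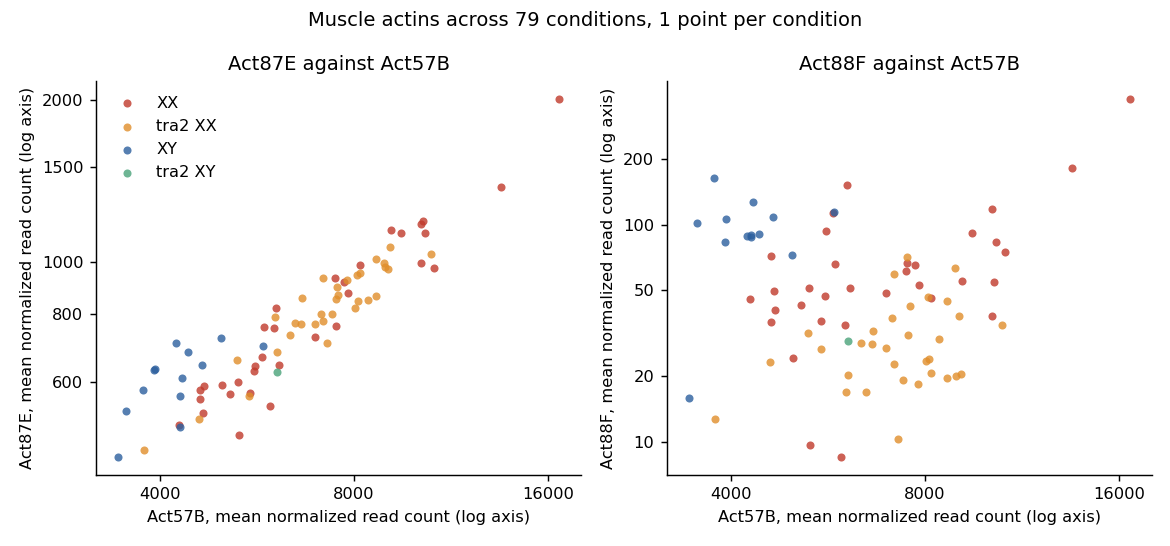
Mean normalized read count of Act87E (left) and Act88F (right) against Act57B in the 79 conditions, both axes logarithmic, 1 point per condition coloured by group. Act87E rises with Act57B across all groups (rho 0.91), whereas Act88F lies higher in XY and lower in tra2 XX at like Act57B levels (rho −0.09).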

How the data were processed

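Of the 249 deposited libraries, 14 were left out as in the authors' filtered tables, and the rest were grouped by their labels. Reads of 76 bases were sequenced from poly-A+ RNA with added spike-ins. The authors mapped reads uniquely to FlyBase release 5 with TopHat2 2.0.10, made the deposited read counts with HTSeq 0.5.4p1 and the FPKM values with Cufflinks 2.1.1. The deposited normalized read counts (a signal scale) are those counts divided by size factors from DESeq2 1.6.3. Whether HTSeq used strand is not given in the sources used here. Actin genes are near-identical in sequence, and unique mapping can lose or split the reads they share, so their levels are uncertain to that extent. The gene lncRNA:CR45591 lies opposite Act87E and a snoRNA gene within Act57B, each with a median of 0 reads. Rows that name no gene held 7.123% of reads and were left out, as were 96 spike-ins.

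Counts were tested with the quasi-likelihood test of edgeR 4.0.16 (TMM, filterByExpr) in R 4.3.3, with Benjamini-Hochberg adjustment over all genes tested and a threshold of 0.05. The line was a factor in the 3L and X comparisons. Alternatives were DESeq2 1.42.0, RLE size factors, no filter, a replicate block, limma 3.58.1 on log2(FPKM + 1), other sets of libraries, and each replicate left out. The tests were checked on simulated data with 200 changed genes: 0.811 of genes changed 2-fold were recovered in the w1118 fit (9861 genes) and 1.0 in the fit of the 3L lines (10403 genes). False calls were 10 of 192 and 15 of 215. The changed genes were drawn from those above a minimum expected count, so the check does not cover genes with few reads. It also had far fewer changed genes than were called in the 3L lines. The members and the gene lists were chosen with earlier results of these data known. The 6 actins are always named, with at most 4 genes per list and comparison by size of change among those called, fixed markers, the 3 nearest genes of each actin, and the lines called. No coordinates are given because the annotation used for arms and lengths, BDGP6, differs from the authors' release.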

Additional observations from a re-analysis of the deposited data

Results flagged for a closer look

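The difference between tra2 XX and XX was not the same in the lines with 3L deletions and in those with X deletions by a test of that difference in edgeR. It was larger in the 3L lines by log2 0.61 for Act57B, 0.51 for Act87E, 0.35 for Act42A, 0.27 for Act5C and 0.67 for Act88F, where the last is a smaller fall. The 3L lines had the higher value for Act79B too (0.34, adjusted p = 0.14), which was not called. For 6 of 6 actins the estimate thus had the same sign. Of all genes, 40.7% were called in this test, 22.1% higher and 18.6% lower. The actins are not independent of each other, as Act57B and Act87E had rho of 0.91 over the conditions. Of the chaperonin list 6 of 7 genes were called higher in the same test and 0 lower. The sets of lines differed in their crosses as well as in the arm deleted, and these cannot be told apart.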

How the results depend on the processing

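Of 1182 alternative values for single actins, 1090 kept their direction and side of the threshold, 36 passed it, 33 lost it and 23 changed sign. The cause was not tested in any case. The count of actins called for w1118 XX over XY (0) was 1 with DESeq2 and with only the 6 libraries compared, and 0 to 1 when single libraries were left out. For w1118 tra2 XX over XX (1) it was 4 with DESeq2, with no filter and with only the 6 libraries compared, 3 with RLE size factors, 2 with limma on FPKM, 2 with all libraries in a single fit (Act57B and Act87E, not Act42A), and 1 to 4 when single libraries were left out. The X lines had 5 actins with limma on FPKM. Without single libraries the counts were 0 to 1 for w1118 tra2 XY over XY, 0 to 1 for OreR XX over XY, 1 to 2 for OreR over w1118 in XX and 1 to 3 in XY. For 3L XX over XY the count was 3 to 4 without all libraries of a replicate number and 5 without Df(3L)ED4475/+ XY replicate 2 alone. Among lines, 3 actins were called in tra2 XX and 1 in XY with only the deletion lines, and without a replicate number 1 to 4 in tra2 XX and 0 to 3 in XY. The calls of single lines were then 16 to 21 in XX, 3 to 12 in tra2 XX and 1 to 5 in XY, with at most 2 libraries left per line. Samples with the same replicate number did not deviate together (median correlation −0.04 to 0.01), so the numbers do not pair samples. A replicate block gave 2 actins for w1118 tra2 XX over XX and 1 for OreR over w1118 in XX.

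Signs changed only for actins that were not called. With limma on FPKM, Act57B was −0.10 for w1118 tra2 XY over XY and Act42A −0.04 in the X lines, where it was −0.06 without Df(1)ED6829/+. Act79B was −0.36 in tra2 XX over XX of the 3L lines, with an adjusted p of 0.0077. Without single libraries or replicate numbers, Act42A ran from −0.09 to 0.03 in w1118 XX over XY and from −0.06 to 0.13 in the X lines. In w1118 tra2 XX over tra2 XY, Act5C ran from −0.20 to 0.03, Act87E from −0.44 to 0.06 and Act88F from −0.90 to 0.15. In w1118 tra2 XY over XY, Act5C ran from −0.00 to 0.21 and Act57B from −0.22 to 0.20. Act79B ran from −0.34 to 0.15 in the difference of the w1118 contrasts, −0.04 to 0.20 in tra2 XX over XX and −0.32 to 0.12 in tra2 XX over XY of the 3L lines, −0.26 to 0.21 in OreR over w1118 in XX and −0.16 to 0.26 in XY. Act5C ran from −0.09 to 0.15 in OreR over w1118 in XX.

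Over all genes, the count called in w1118 XX over XY (639) was 1042 with DESeq2 and 172 with limma, and in tra2 XY over XY (564) 888, 209 and, with only the 6 libraries, 130. For tra2 XX over XX (1543) it was 2894 with only the 6 libraries and 799 with limma. For tra2 XX over tra2 XY (25) it was 71 with DESeq2, 12 with limma, 2 with only the 6 libraries, 39 with all libraries and 456 without tra2 XY replicate 1. For the difference of these contrasts (102) it was 438 with DESeq2, 32 with limma and 155 with all libraries. Among lines with only deletions it was 2984 in tra2 XX and 669 in XY. Act88F is limited by depth, with a lowest value of 4.76 normalized read counts.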
